A study of Mus musculus with 48 samples.

Results

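Dbp, Tef, Hlf and Nfil3 encode the D-box factors, transcription factors of the basic leucine zipper class that bind the same DNA element, the D-box. They were chosen by name, as the probe sets that carry exactly 1 gene symbol equal to one of the 4 names, with the probe set of highest mean over all arrays used for each gene and the others kept as a check. All 4 genes passed the filter on dim genes, out of 12823 genes tested and 17097 on the array, and 6 probe sets match them (1 for Dbp, 2 for Tef, 2 for Hlf and 1 for Nfil3). The RNA came from epidermal stem cells of wild type C57B6/J female mice, either aged (102 to 116 weeks old) or young (8 weeks old). Cells were collected every 4 h through the day, at the labelled times T0 to T20, written here as ZT0 to ZT20 (zeitgeber time, where ZT0 is by convention lights on). Each age and time had 4 mice, each with an array of its own, which makes 48 arrays. The mice carried no treatment or transgene in the labels, and which surface markers were used to isolate the cells is not given in the sources used here.

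Dbp, Tef and Hlf are the PAR bZIP proteins, named for a domain rich in proline and acidic residues, and activate genes that carry a D-box. Nfil3, also called E4bp4, has a like DNA-binding region without that domain and represses from the same sites. In the circadian clock Dbp is driven through E-boxes by the dimer of Clock and Arntl, whereas Nfil3 is repressed by Nr1d1 and Nr1d2 and activated by the Ror proteins through RRE elements, so that activators and repressor are high at opposite times of day in tissues such as liver. The factors in turn act on Per genes and on metabolic genes of liver, kidney and brain, among them the pyridoxal kinase Pdxk.

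Promoter windows were searched for the letters of 4 DNA elements known from the clock. Those of Tef, Nfil3 and Per3 held a match, and those of Dbp and Hlf held none. The windows come from RefSeq (GRCm38.p6) and run from 250 bases before to 50 bases after each start site, 300 bases in all. They read 5′ to 3′ on the strand of the gene. Capitals mark every match, on either strand, to 4 searched motifs, which share no base with each other here: the E-box CACGTG, the E′-box CACGTT, the D-box TTANGTAA and the RRE core TAGGTCA. All 4 factors had an entry, with 5 windows between them.
Tef, first start site, chr15:81802423-81802722, plus strand: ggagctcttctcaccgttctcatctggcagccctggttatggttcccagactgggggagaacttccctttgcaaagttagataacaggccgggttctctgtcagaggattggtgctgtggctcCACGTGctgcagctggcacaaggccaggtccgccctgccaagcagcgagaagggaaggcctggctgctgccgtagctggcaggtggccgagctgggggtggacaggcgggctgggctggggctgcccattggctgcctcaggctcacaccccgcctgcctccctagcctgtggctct
Tef, second start site, chr15:81811164-81811463, plus strand: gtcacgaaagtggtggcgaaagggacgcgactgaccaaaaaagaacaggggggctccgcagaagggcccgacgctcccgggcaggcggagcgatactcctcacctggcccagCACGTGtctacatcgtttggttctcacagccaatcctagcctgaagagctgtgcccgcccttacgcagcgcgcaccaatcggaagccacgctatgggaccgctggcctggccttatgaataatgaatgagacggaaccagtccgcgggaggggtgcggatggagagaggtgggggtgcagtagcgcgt
Nfil3, chr13:52980990-52981289, minus strand: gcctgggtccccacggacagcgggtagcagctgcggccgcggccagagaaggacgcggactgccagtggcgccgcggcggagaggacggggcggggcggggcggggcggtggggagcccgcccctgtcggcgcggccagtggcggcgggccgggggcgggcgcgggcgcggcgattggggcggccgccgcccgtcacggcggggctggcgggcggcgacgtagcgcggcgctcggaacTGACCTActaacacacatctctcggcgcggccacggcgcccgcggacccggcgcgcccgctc
Per3, chr4:151044616-151044915, minus strand: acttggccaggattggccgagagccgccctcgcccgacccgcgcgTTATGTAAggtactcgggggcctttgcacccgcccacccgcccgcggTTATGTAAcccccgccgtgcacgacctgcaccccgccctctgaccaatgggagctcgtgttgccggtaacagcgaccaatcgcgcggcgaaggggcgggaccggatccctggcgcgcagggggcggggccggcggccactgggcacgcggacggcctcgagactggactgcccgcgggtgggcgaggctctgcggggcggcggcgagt
Each Tef window holds 1 E-box, beginning 127 bases before the first start site and 138 bases before the second. The Nfil3 window holds the letters TGACCTA, the RRE core read on the opposite strand, from 12 bases before its start. The windows of Dbp (chr7:45704997-45705296, plus strand) and Hlf (chr11:90390868-90391167, minus strand) hold none of the 4 motifs. Per3, a clock repressor, is shown as a D-box gene, with 2 copies of TTATGTAA that begin 205 and 158 bases before its start. Its course was the most like that of Tef among the genes compared, which left out the 4 factors and predicted or clone names. Among 32851 RefSeq windows of this length, 7.15% hold the E-box, 4.68% the E′-box, 2.32% the D-box and 2.61% the RRE core. A match is a description of letters and not a shown binding site.

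The arrays were alike as a whole, with medians between 4.78 and 5.04 on the log2 scale and correlations between arrays from 0.960 to 0.997 (median 0.985). All 7 basal keratinocyte markers were above the dim limit of 3.96, with a mean over the list of 11.3 to 11.6 in aged and 11.3 to 11.5 in young arrays. Of 7 bulge markers 5 were above it (Krt15 at 12.1), while Cd34 (3.31) and Lgr5 (3.72), which define bulge stem cells, were below it. The list means of fibroblast, endothelial and adipocyte markers were at or near the limit at both ages. These list means ran from 3.37 to 4.01 in aged and from 3.39 to 4.07 in young arrays. By count, 3 of 6 fibroblast markers (Col1a1 at 4.45), 1 of 5 endothelial markers (Pecam1 at 4.31) and 0 of 3 measured adipocyte markers were above the limit. Of 7 suprabasal markers 6 were above the limit. Krt1 and Krt10 (11.7 each), Sbsn (11.3) and Krtdap (9.59) were high, Lor (6.60) and Ivl (6.39) lower, and Flg (3.05) was below the limit. Also above it were 4 of 4 measured T cell markers (Thy1 at 9.42) and 2 of 5 Langerhans and myeloid markers (Cd74 at 5.61). So were 1 of 4 melanocyte markers (Pmel at 6.01) and 2 of 3 skeletal muscle markers (Ckm at 5.29 and Acta1 at 4.01). Levels are in bulk RNA, in which fewer cells of a type and less RNA per cell cannot be told apart.

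Dbp, the PAR bZIP factor best known as a direct output of the clock, was highest at ZT12 and lowest at ZT0 at both ages. All values are probe set summaries on the log2 scale, 1 per mouse. At ZT0 Dbp was at 4.45, 4.83, 4.85 and 4.98 in aged mice, against 4.74, 4.13, 4.75 and 4.46 in young mice. At ZT4 Dbp was at 6.27, 6.35, 5.07 and 6.09 in aged mice, against 6.97, 5.92, 6.00 and 6.33 in young mice. At ZT8 Dbp was at 7.76, 7.88, 7.24 and 7.96 in aged mice, against 7.47, 7.83, 7.83 and 8.01 in young mice. The level thus climbed through the light phase at both ages, and the ages overlapped at each of these times. At ZT12 Dbp stood highest, at 8.67, 8.25, 8.14 and 8.45 in aged mice, against 7.99, 8.61, 8.38 and 8.02 in young mice. At ZT16 Dbp was at 6.37, 5.86, 6.21 and 6.84 in aged mice, against 6.71, 6.34, 6.27 and 5.93 in young mice. At ZT20 Dbp was at 5.33, 4.72, 5.11 and 5.94 in aged mice, against 4.98, 4.88, 4.93 and 4.71 in young mice. The night brought the level down, and the ages overlapped here too. Aged ZT4 replicate 3, at 5.07, lay well below the other 3 mice of its group. The means at ZT12 and ZT0, the highest and lowest, were 8.38 ± 0.24 and 4.78 ± 0.23 in aged mice and 8.25 ± 0.30 and 4.52 ± 0.29 in young mice (SD, n = 4 each), a ratio of 12.1 and 13.3 times. In order from high to low the aged times ran ZT12, ZT8, ZT16, ZT4, ZT20 and ZT0. The young times ran in the same order, with ZT16 and ZT4 only 0.0033 apart. In aged mice the neighbours from ZT16 down (ZT16 and ZT4, ZT4 and ZT20, ZT20 and ZT0) overlapped, and in young mice those that overlapped were ZT12 and ZT8, ZT16 and ZT4, and ZT20 and ZT0.

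Tef, a PAR bZIP factor closely related to Dbp, followed with a smaller swing. At ZT0 Tef was at 7.27, 7.70, 7.60 and 7.42 in aged mice, against 7.57, 7.39, 7.53 and 7.36 in young mice. At ZT4 Tef was at 8.61, 8.48, 7.63 and 8.16 in aged mice, against 8.54, 8.15, 8.58 and 8.27 in young mice. At ZT8 Tef was at 9.10, 9.41, 8.83 and 9.36 in aged mice, against 8.96, 9.31, 8.95 and 9.13 in young mice. All mice at ZT0 lay between 7.27 and 7.70 if aged and between 7.36 and 7.57 if young, and aged ZT4 replicate 3 (7.63) was the 1 mouse of another time within that range. The ages overlapped at these times. At ZT12 Tef stood highest, at 9.86, 9.34, 9.23 and 9.60 in aged mice, against 9.70, 9.34, 9.59 and 9.54 in young mice. At ZT16 Tef was at 8.87, 9.01, 9.001 and 8.91 in aged mice, against 9.27, 9.06, 8.92 and 8.88 in young mice. At ZT20 Tef was at 8.57, 8.34, 8.29 and 8.81 in aged mice, against 8.04, 7.99, 8.21 and 8.19 in young mice. ZT20 was the 1 time of 6 at which the ages did not overlap, with every aged mouse above every young mouse. The ZT12 and ZT0 means were 9.51 ± 0.28 and 7.49 ± 0.19 in aged mice and 9.55 ± 0.15 and 7.46 ± 0.10 in young mice (SD, n = 4 each), a ratio of 4.03 and 4.23 times. The order was ZT12, ZT8, ZT16, ZT20, ZT4 and ZT0 in aged mice, where all neighbours but ZT16 and ZT20 overlapped, and ZT12, ZT8, ZT16, ZT4, ZT20 and ZT0 in young mice, where ZT8 and ZT16, and ZT4 and ZT20, did.

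**Figure D1:**
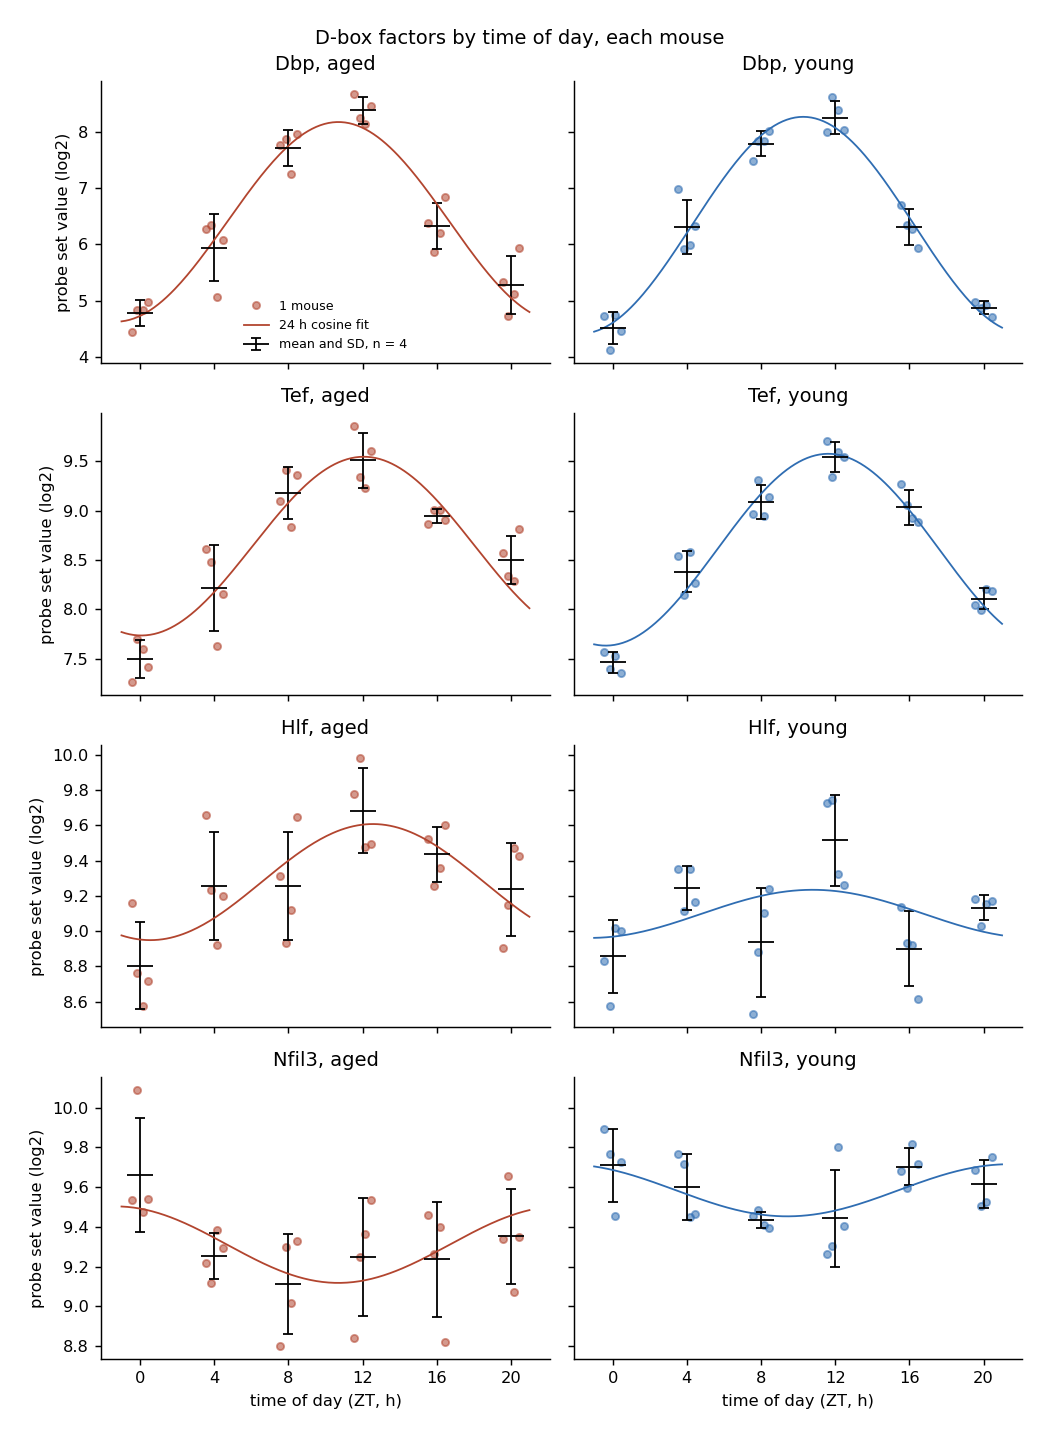
Probe set values (log2) of the 4 factors against time of day (ZT, h), aged mice on the left and young mice on the right, with a point for each mouse, bars for the mean and SD of 4 mice and a line for the fitted 24 h cosine. Dbp and Tef are highest at ZT12 and lowest at ZT0 at both ages, Hlf is highest at ZT12, and the Nfil3 points of aged mice lie lower than those of young mice at most times.

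Rhythm was tested with limma, by an F test of a cosine and a sine of 24 h within each age, with Benjamini-Hochberg adjustment over all 12823 genes and a threshold of 0.05. Dbp and Tef were rhythmic at both ages. These are 2 of 4 factors in aged mice, where 1.36% of all genes tested were rhythmic, and 2 of 4 in young mice, where 6.27% were. The amplitude of Dbp, from the fitted mean to the fitted peak, was 1.77 ± 0.11 in aged and 1.92 ± 0.11 in young mice (SE, n = 24 arrays each; adjusted p = 5.72e-16 and 1.03e-17), which ranks 2 and 1 among all genes tested. That of Tef was 0.90 ± 0.07 in aged and 0.97 ± 0.07 in young mice (adjusted p = 6.22e-12 and 3.51e-13), ranking 5 and 9. The second Tef probe set, whose correlation with the first over the 48 arrays was 0.971, gave 0.97 ± 0.09 in aged and 1.11 ± 0.09 in young mice.

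The Tef peak came later than the Dbp peak at both ages. The lag, with an error that uses the covariance of the genes on the same arrays, was 1.37 ± 0.28 h in aged mice (95% confidence interval 0.807 to 1.93 h) and 1.35 ± 0.26 h in young mice (0.830 to 1.87 h). The lag stayed between 1.23 and 1.48 h in aged and between 1.29 and 1.52 h in young mice over 57 other settings, each array left out among them. Sampling every 4 h is coarser than this lag, which therefore rests on the cosine form.

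Hlf, the factor of this family that is also known from leukaemia fusions, varied through the day by less. At ZT0 Hlf was at 9.16, 8.77, 8.58 and 8.72 in aged mice, against 8.83, 8.57, 9.02 and 9.0001 in young mice. At ZT4 Hlf was at 9.66, 9.24, 8.92 and 9.20 in aged mice, against 9.35, 9.11, 9.35 and 9.16 in young mice. At ZT8 Hlf was at 9.31, 8.93, 9.12 and 9.65 in aged mice, against 8.53, 8.88, 9.10 and 9.24 in young mice. The ages overlapped at these times, and the spread within a group, up to 0.31 (SD), was large beside the daily swing. At ZT12 Hlf stood highest, at 9.78, 9.98, 9.48 and 9.49 in aged mice, against 9.73, 9.74, 9.32 and 9.26 in young mice. At ZT16 Hlf was at 9.52, 9.25, 9.36 and 9.60 in aged mice, against 9.13, 8.93, 8.92 and 8.62 in young mice. At ZT20 Hlf was at 8.90, 9.15, 9.47 and 9.43 in aged mice, against 9.18, 9.03, 9.15 and 9.17 in young mice. At ZT16 all 4 aged mice were above all young mice, and at the other times the ages overlapped. The mean at ZT12 was 9.68 ± 0.24 in aged and 9.51 ± 0.26 in young mice, and that at ZT0 was 8.81 ± 0.25 and 8.86 ± 0.21 (SD, n = 4 each), a ratio of 1.84 and 1.58 times, and at each age these groups did not overlap. The order was ZT12, ZT16, ZT4, ZT8, ZT20 and ZT0 in aged mice and ZT12, ZT4, ZT20, ZT8, ZT16 and ZT0 in young mice, and every pair of neighbours in either order overlapped.

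The 24 h cosine of Hlf had an amplitude of 0.33 ± 0.08 in aged and 0.14 ± 0.08 in young mice (SE; limma, adjusted p = 0.0523 and 0.533), so neither passed. With time of day as a factor, which asks only whether the 6 means differ, Hlf varied at both ages (limma F test, adjusted p = 0.00643 in aged and 0.0143 in young mice), where 8.36% of genes in aged and 17.5% in young mice did. The young means at ZT4 (9.24 ± 0.12), ZT12 and ZT20 (9.13 ± 0.07) all lay above those at ZT0, ZT8 (8.94 ± 0.31) and ZT16 (8.90 ± 0.21). A 24 h cosine cannot follow means in such an order, and whether the course has more than 1 maximum was not tested. The call in young mice was lost without young ZT12 replicate 1 or replicate 2 (adjusted p = 0.0565 and 0.0574). The other Hlf probe set, which correlated with the first at 0.739, had a cosine amplitude of 0.34 ± 0.08 in aged and 0.19 ± 0.08 in young mice. In the fit across all 28898 probe sets with 1 symbol its aged rhythm passed (adjusted p = 0.0304) and its young rhythm did not (0.309). With time of day as a factor this other probe set varied at both ages (limma F test, adjusted p = 0.00244 in aged and 6.64e-04 in young mice). The aged cosine of Hlf thus lay near the threshold, and 20 of 61 alternatives took it past (adjusted p between 0.00643 and 0.169).

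Nfil3, the repressor of the group, was lower in aged than in young mice over the day. At ZT0 Nfil3 was at 9.54, 10.09, 9.48 and 9.54 in aged mice, against 9.89, 9.76, 9.45 and 9.73 in young mice. At ZT4 Nfil3 was at 9.22, 9.12, 9.39 and 9.29 in aged mice, against 9.77, 9.72, 9.45 and 9.46 in young mice. At ZT8 Nfil3 was at 8.80, 9.30, 9.02 and 9.33 in aged mice, against 9.45, 9.48, 9.41 and 9.39 in young mice. At ZT4 and ZT8 every aged mouse was below every young mouse, while at ZT0 the ages overlapped, with aged replicate 2 (10.09) the highest of all. At ZT12 Nfil3 was at 8.84, 9.25, 9.36 and 9.54 in aged mice, against 9.27, 9.30, 9.80 and 9.40 in young mice. At ZT16 Nfil3 was at 9.46, 9.26, 9.40 and 8.82 in aged mice, against 9.68, 9.59, 9.82 and 9.71 in young mice. At ZT20 Nfil3 was at 9.34, 9.65, 9.07 and 9.35 in aged mice, against 9.68, 9.50, 9.52 and 9.75 in young mice. The ages did not overlap at ZT16 either, and the aged mean was the lower at 6 of 6 times. The mean over the day was 9.31 in aged and 9.58 in young mice, a difference of -0.27 ± 0.06 on the log2 scale (SE, n = 24 each; 95% confidence interval -0.40 to -0.15; limma, adjusted p = 9.84e-04). Of all genes tested 18.6% differed in level, 9.89% higher and 8.73% lower in aged mice. The difference of Nfil3 passed in 58 of 58 alternatives, from -0.30 to -0.25 (adjusted p up to 0.00317). Among the cell type lists, 3 of 4 measured T cell markers (Cd3e, Cd3g and Thy1, the last by 0.65, list mean 5.43 to 6.73 in aged and 5.17 to 5.90 in young arrays) and 2 of 7 basal keratinocyte markers were higher in aged mice. On the same test 2 of 5 bulge and 1 of 6 suprabasal markers above the dim limit were lower, and the part of these markers in the Nfil3 difference was not tested.

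The daily swing of Nfil3 was small and did not pass. Its cosine had an amplitude of 0.19 ± 0.06 in aged and 0.13 ± 0.06 in young mice (SE; limma, adjusted p = 0.234 and 0.367), and time of day as a factor gave adjusted p = 0.104 and 0.437. The means at ZT0 and ZT8, the highest and lowest at both ages, were 9.66 ± 0.29 and 9.11 ± 0.25 in aged mice and 9.71 ± 0.18 and 9.43 ± 0.04 in young mice (SD, n = 4 each). Every pair of neighbours in the order of the 6 means overlapped at each age. The fitted peak of this wave, which did not pass, was at ZT22.70 ± 1.22 in aged and ZT21.41 ± 1.79 in young mice (SE). It lay 10.6 ± 1.23 h after that of Tef in aged mice and 9.79 ± 1.80 h after it in young mice.

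**Figure D2:**
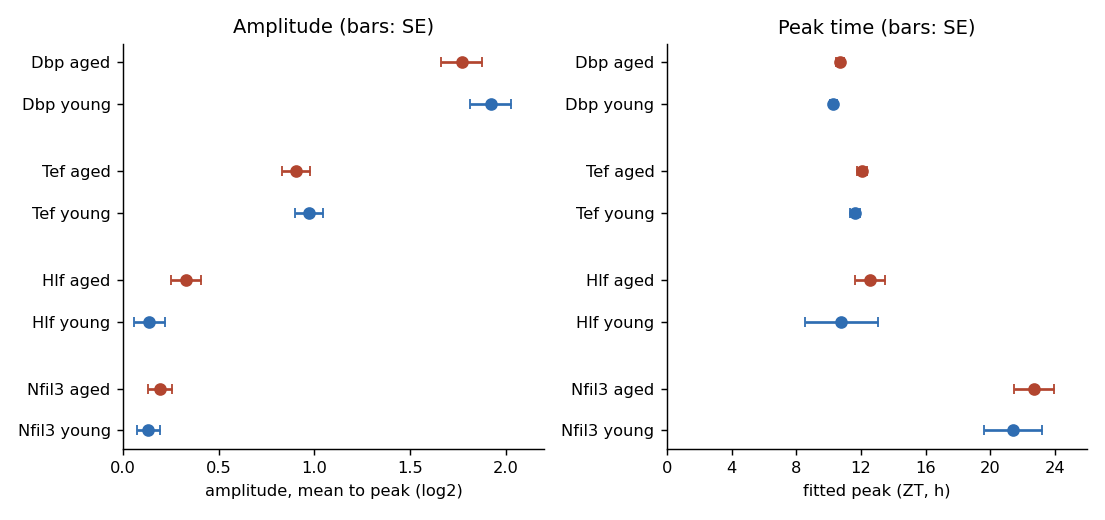
Fitted amplitude (log2, left) and fitted peak time (ZT, h, right) of each factor, aged above young, as points with the SE of the limma fit. The aged and young bars of Dbp and of Tef lie close together, the peaks of Hlf and Nfil3 are less certain, and the Nfil3 peaks of ZT22.70 in aged and ZT21.41 in young mice are apart from the rest.

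No rhythm of the 4 factors differed between the ages past the threshold. The F test of the difference in cosine and sine gave adjusted p of 0.866 for Dbp, 0.925 for Tef, 0.805 for Hlf and 0.961 for Nfil3 (unadjusted 0.266, 0.478, 0.173 and 0.649), and the share of all genes called was 0% (982 of 12823 had an unadjusted p under 0.05). For Dbp the amplitude difference, aged minus young, was -0.15 (95% confidence interval -0.46 to 0.16), and the peak was 0.420 h later in aged mice (-0.220 to 1.06 h). The amplitude difference of Tef was -0.07 (-0.27 to 0.14), with a peak 0.438 h later in aged mice (-0.408 to 1.28 h). That of Hlf was 0.19 (-0.03 to 0.42) and that of Nfil3 0.06 (-0.11 to 0.24). The intervals leave room for a Dbp amplitude lower by 0.46 or higher by 0.16 in aged mice, so an equal rhythm was not shown. The age by time interaction did not pass either (limma, adjusted p from 0.519 for Hlf to 0.798 for Nfil3, where 2.59% of all genes passed).

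The levels over the day of the 3 activators did not differ past the threshold. Dbp averaged 6.40 in aged and 6.34 in young mice (difference 0.06 ± 0.11, limma, adjusted p = 0.761). Tef averaged 8.64 in aged and 8.60 in young mice (0.04 ± 0.07, adjusted p = 0.787). Hlf averaged 9.28 in aged and 9.10 in young mice (0.18 ± 0.08, 95% confidence interval 0.02 to 0.34, adjusted p = 0.113). The other Hlf probe set gave 0.22 ± 0.08 (adjusted p = 0.0359 over all probe sets with 1 symbol), and the mean of both probe sets 0.20 (adjusted p = 0.0314).

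At single times of day 0 of 24 differences between the ages passed, where from 1.31% of all genes (ZT12) to 8.21% (ZT4) did and ZT0 had 5.19%. The largest difference of Hlf was at ZT16, where the aged mean was 0.53 ± 0.16 higher (1.45 times; limma, adjusted p = 0.0577, unadjusted 0.0021). The largest of Nfil3 was also at ZT16, at -0.47 ± 0.15 (0.724 times; adjusted p = 0.0667, unadjusted 0.00275), where 3.3% of all genes passed. These values passed in 10 and 4 of 57 alternatives, with adjusted p from 0.0135 to 0.235 and from 0.0236 to 0.342. With the mean of both probe sets Hlf also passed at ZT8 (0.49, adjusted p = 0.0311). Tef at ZT20 was 0.39 ± 0.15 higher in aged mice (adjusted p = 0.276, unadjusted 0.0139), where 1.36% of all genes passed. The groups did not overlap at 0 of 6 times for Dbp, 1 for Tef (ZT20), 1 for Hlf (ZT16) and 3 for Nfil3 (ZT4, ZT8 and ZT16). Of all genes tested the groups did not overlap in 5.68% at ZT0, 14.5% at ZT4, 10% at ZT8, 6.39% at ZT12, 12.1% at ZT16 and 6.53% at ZT20, while 3.3% passed the test at ZT16 and 2.14% at ZT8.

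**Figure D3:**
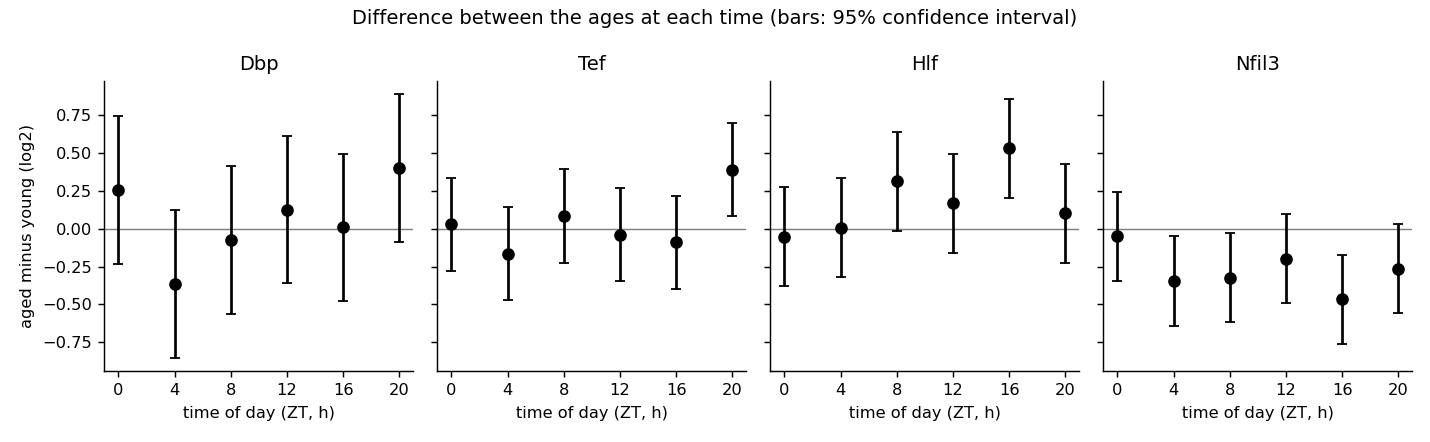
Difference in mean probe set value, aged minus young (log2), at each time of day (ZT, h) for the 4 factors, with 95% confidence intervals of the limma fit. The 6 Nfil3 points lie below 0, the Dbp and Tef points lie on both sides of it, and the Hlf point at ZT16 (0.53) is the highest of that gene.

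Mice of the same age and time with more Dbp also had more Tef. Over the 48 arrays the deviations from the mean of each group of 4 correlated at r = 0.636 and rho = 0.60 (permutation within groups, p = 2.00e-04 and 1.00e-04; adjusted over 6 pairs of factors, 0.0012 and 6.00e-04). Without the 2 arrays farthest from the median in Dbp r was 0.549. It was 0.774 in the 24 aged and 0.339 in the 24 young arrays, and the difference between these was not tested. Without aged ZT4 replicate 3, which had the lowest Dbp, Tef and Hlf of its group (5.07, 7.63 and 8.92), r was 0.523, and with the mean of probe sets 0.766. Dbp and Hlf gave r = 0.447 and rho = 0.431 (adjusted permutation p = 0.0215 and 0.0249), with 0.366 in aged and 0.578 in young arrays and 0.394 without the 2 farthest. With arrays centred on their median the values of r were 0.651 for Dbp and Tef and 0.473 for Dbp and Hlf. The other 4 pairs did not pass, from r = -0.294 for Hlf and Nfil3 (adjusted p = 0.157) to 0.260 for Tef and Hlf (0.266).

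**Figure D4:**
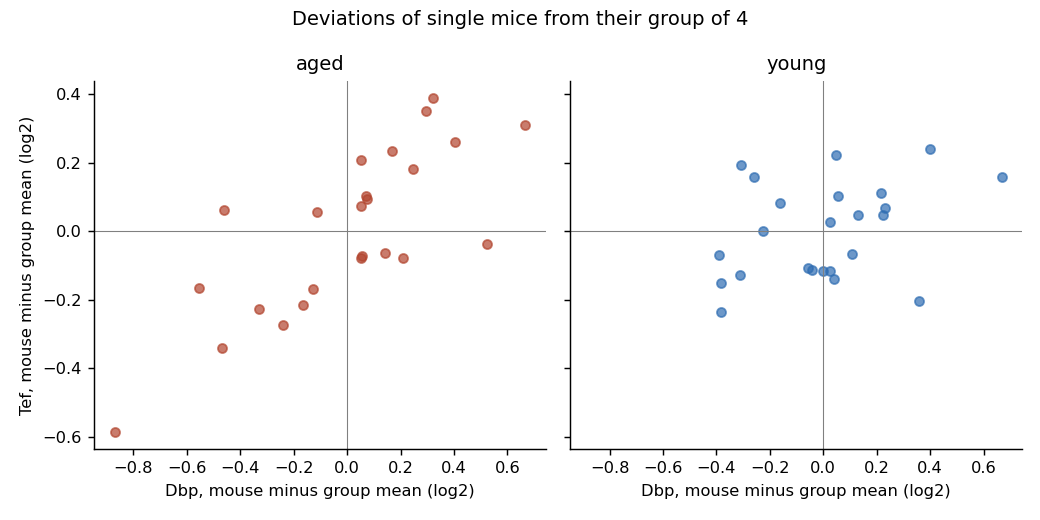
Deviation of each mouse from the mean of its group of 4 (log2), Dbp on the horizontal and Tef on the vertical axis, with 24 aged mice on the left and 24 young mice on the right. The aged points follow a rising line (r = 0.774), at whose lower end lies the mouse of ZT4 with low values of both genes, and the young points, which span a smaller range, follow one less closely (r = 0.339).

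The regulators that act on the D-box factors through E-box and RRE elements were rhythmic in part. Of 15 listed genes 11 were tested, and 7 were rhythmic in aged and 6 in young mice, 5 of them at both ages, against 1.36% and 6.27% of all genes. The median amplitude of the list was 0.44 in aged and 0.54 in young mice, against 0.08 and 0.09 over all genes tested. The leading members were Nr1d2 (amplitude 0.94 in aged and 1.17 in young mice, peak ZT9.94 and ZT9.91), the repressors Per2 (0.64 and 1.16, peak ZT13.57 and ZT13.71) and Per3 (1.86 and 1.67, peak ZT12.96 and ZT12.92), and Npas2, a partner of Arntl (0.42 and 0.61, peak ZT23.62 and ZT23.27). The fitted peak of Nr1d2, which represses Nfil3 in liver, stood beside that of Dbp (ZT10.69 in aged and ZT10.27 in young mice). That of Npas2 stood beside that of Nfil3, whose rhythm passed at neither age. The gaps between these peaks were not tested. In level Per2 (0.41, adjusted p = 6.32e-04), Rora (0.15, 0.0438) and Bhlhe40 (0.22, 0.0248) were higher in aged mice by limma, while Nr1d2 stood at -0.03 (adjusted p = 0.869). That is 3 of 11 higher and 0 lower, where 9.89% of all genes were higher and 8.73% lower, so 0 lower does not set the list apart.

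Most of the tested clock genes known to carry D-boxes were rhythmic. Of 10 listed genes 7 were tested, with 5 rhythmic in aged and 6 in young mice, against 1.36% and 6.27% of all genes. Their median amplitude was 0.69 in aged and 0.79 in young mice. All tested genes but Ciart are also in the list of E-box and RRE regulators above, so the 2 lists are not separate results. Besides Nr1d2, Per2 and Per3 the leading member was Ciart, a repressor of the clock, with an amplitude of 0.75 in aged and 0.73 in young mice and a peak at ZT11.74 and ZT12.43. No rhythm of the list differed between the ages past the threshold, and Per2 and Per1 had an unadjusted p under 0.05 (6.28e-04 and 0.0338, adjusted 0.235 and 0.606). With time of day as a factor the age by time interaction passed for Per1 alone of the list (limma, adjusted p = 0.023), where 2.59% of all genes passed. In the RefSeq promoters 2 of the 8 genes with a window held the D-box letters, in 20% of 10 windows against 2.32% of all windows. These were Per3 and Rorb, of which Rorb was not among the genes tested. The list was drawn up from genes known to carry D-boxes, so a share above that of all windows was built in and is no support. The E-box was held by 3 genes (Per1, Cry1 and Ciart), in 3 of 10 windows (30%) against 7.15% of all windows. The list holds clock genes chosen by name, so this share is no support either.

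**Figure D5:**
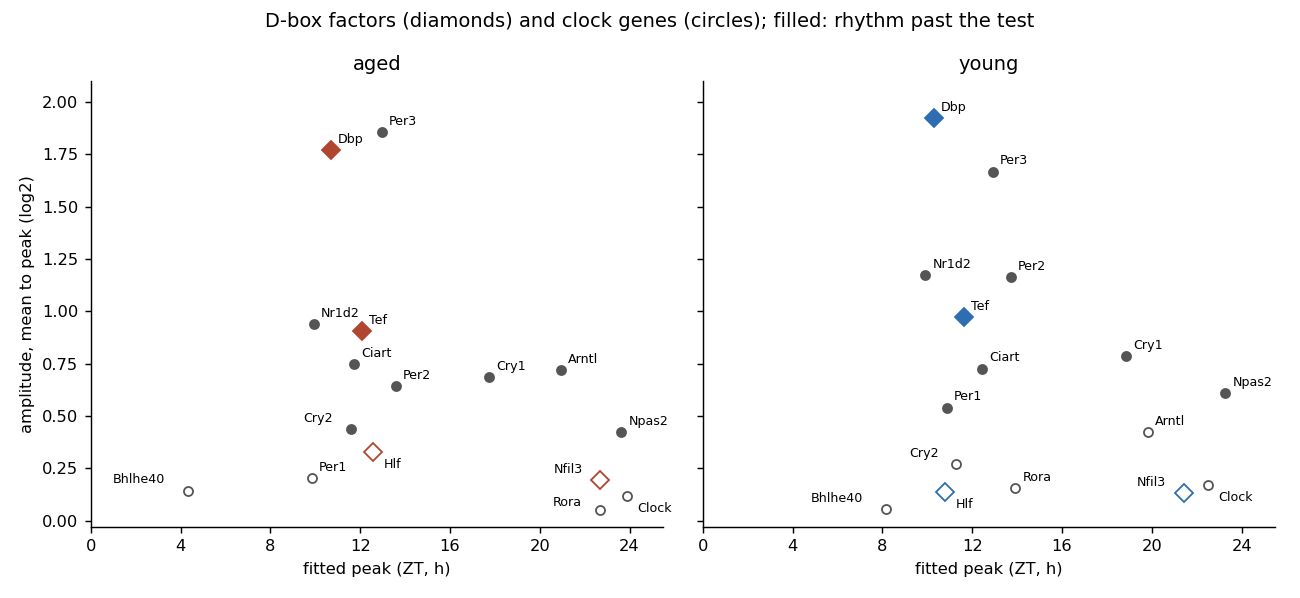
Fitted amplitude (log2) against fitted peak (ZT, h) of the 4 factors (diamonds) and 12 clock genes of the lists (circles), aged on the left and young on the right, filled where the rhythm passed. Dbp and Tef lie among Nr1d2, Ciart, Per2 and Per3 between ZT9 and ZT14. The fitted peaks of Nfil3 and Clock, whose rhythms passed at neither age, lie late in the night near that of Npas2.

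Output genes of the PAR bZIP factors, as known from liver, kidney and brain, were rhythmic in few cases here. Of 26 listed genes 13 were tested, the rest being dim or without a probe set of their own, with 1 rhythmic in aged mice, where 1.36% of all genes tested were, and 2 in young mice, where 6.27% were, and a median amplitude of 0.16 and 0.13. With time of day as a factor 3 varied in aged and 5 in young mice, beside 8.36% and 17.5% of all genes. Their RefSeq promoters held the D-box letters in 0 of 28 windows, from 23 genes, against 2.32% of all windows. At that share 0 of 28 does not set the list apart, and D-boxes with other letters or outside the windows were not searched. Pdxk, the kinase that makes active vitamin B6, was the 1 rhythmic at both ages, with an amplitude of 0.35 in aged and 0.48 in young mice and a peak at ZT13.84 and ZT15.22 (limma, adjusted p = 0.0114 and 3.38e-05). Cyp2b10, a drug-metabolising enzyme, was rhythmic in young mice (0.60, peak ZT14.29, adjusted p = 0.00241) and had 0.17 in aged mice (0.812), and the difference between the cosines did not pass (adjusted p = 0.434). With time of day as a factor 3 of 13 passed the age by time interaction (limma), where 2.59% of all genes did. These were Cyp2b10 (adjusted p = 0.0351), Ppara (0.0028) and the retinal dehydrogenase Aldh1a1 (0.0212). Cyp3a13 had an amplitude of 0.24 in aged and 0.20 in young mice and the transporter Abcg2 0.23 and 0.10, none past the test. In level Pdxk (0.29, adjusted p = 0.0023), Abcg2 (0.27, 0.019) and the deubiquitinase Usp2 (0.92, 3.73e-06) were higher and the lipid receptor Ppara (-0.24, 0.0188) was lower in aged mice, 3 and 1 of 13, where 9.89% of all genes were higher and 8.73% lower.

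The C/EBP factors are zipper proteins that can bind like sites. Of 7 listed genes 5 were tested, with 0 rhythmic at either age by limma (unadjusted p under 0.05 for Cebpa in aged mice, 0.0133). Of all genes 1.36% were rhythmic in aged and 6.27% in young mice, so 0 of 5 does not set the list apart. Its median amplitude was 0.07 in aged and 0.13 in young mice. With time of day as a factor Cebpd and Ddit3 passed in aged mice (adjusted p = 0.00557 and 0.00679) and Cebpg in young mice (0.0436), 2 and 1 of 5, where 8.36% and 17.5% of all genes did. Cebpa, the leading one, had an amplitude of 0.17 in aged and 0.13 in young mice (adjusted p = 0.251 and 0.31). In level Cebpd was lower in aged mice (-0.37, limma, adjusted p = 0.00309), 1 of 5, where 8.73% of all genes were lower.

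Genes whose 12 means, 6 times at 2 ages, followed those of a factor most closely included clock genes for Dbp and Tef. The points share arrays and the correlations are descriptions. For Dbp they were Rsad1 (r = 0.935), Nr1d2 (0.931), Cry2 (0.891), Ripor3 (0.886) and Ciart (0.871). Those for Tef were Per3 (0.943), Cry2 (0.910), Ciart (0.904), the RNA methyltransferase Nsun2 (0.899) and Cntn4 (0.885). The fitted amplitude of Rsad1 was 0.42 in aged and 0.53 in young mice, with a peak at ZT10.10 and ZT8.74. Those nearest to Hlf were the polymerase subunit Pold1 (0.933), Gins1 (0.929), Shmt1 (0.908), the helicase subunit Mcm6 (0.888) and Dnajc9 (0.873). Those nearest to Nfil3 were Ginm1 (0.912), Hspa12a (0.870), Rad52 of homologous recombination (0.863), Ccdc84 (0.849) and the xenobiotic receptor Ahr (0.836). Since the choice rests on the 12 means, no test of rhythm or age is given for genes named by likeness alone.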

How the data were processed

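RNA of 48 epidermal stem cell samples was measured on 1-colour Affymetrix arrays. Per the labels, amplified cDNA was fragmented and biotinylated, and per the submitters' processing notes the deposited log2 values were made with RMA, which adjusts background, aligns arrays and summarises probes. The sources used here give neither its version nor whether 1 run covered every array. The number of arrays limits the precision. Of 45141 probe sets 28898 carry 1 gene symbol, 551 several and 15692 none in the probe table. For each of 17097 genes the probe set of highest mean was used, and the lowest 25%, under a mean of 3.96, were dropped as dim.

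Values were fitted across 12823 genes by lmFit and eBayes of limma 3.58.1 (R 4.3.3), with a mean, a cosine and a sine of 24 h per age, or with 12 group means for single times and for time as a factor. The fit was tested on simulated data. Errors are those of the fit. Permutations numbered 100000. The factors, lists and tests were chosen with earlier results of these data known. Named genes are the 4 factors, up to 4 of each list by the smallest rhythm p, those behind a count of calls of 5 or fewer and the 5 genes of most like pattern. Alternatives were other dim filters, the mean of probe sets or another probe set, median centring, cyclic loess, array weights, trend and robust eBayes, the replicate block, each age alone, an added 12 h component, time as a factor and each array left out. Residuals of arrays with the same replicate number had a mean correlation of -0.000737 (0.000912 for other numbers), so mice were treated as unpaired.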

Additional observations from a re-analysis of the deposited data

Results flagged for a closer look

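Nfil3 in aged ZT0 replicate 2 stood at 10.0886, apart from the other mice of its group, the nearest of which was at 9.54. Its gap was 0.896 of the range of the group, above Dixon's 95% critical value for 4 samples. It was 1 of 48 groups tested over the 4 genes, where chance flags about 1 in 20. Without this mouse the aged minus young difference of Nfil3 at ZT16 passed (adjusted p = 0.049) with its value of -0.47 the same, and the level difference over the day was -0.30.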

How the results depend on the processing

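Of 1640 recomputed values for 28 tests of the 4 factors, 1613 kept their side of the threshold, 25 newly passed, 2 no longer passed and 0 reversed. The rhythm of Hlf in aged mice, 0.33 in the reported fit, passed with an amplitude of 0.33 when the lowest 50% of genes were left out (adjusted p = 0.0434), after cyclic loess (0.33, 0.035), median centring of arrays (0.35, 0.0494) or averaging of probe sets (0.33, 0.011), with weighted arrays (0.30, 0.049), with a robust, trended eBayes (0.33, 0.0484), an added 12 h component (0.33, 0.0433), the other probe set (0.34, 0.0304) and time of day as a factor (0.44 from the middle to the top of the means, 0.00643). Leaving out 1 array gave 0.29 to 0.37 (adjusted p from 0.0186 to 0.169). Time as a factor also called Hlf in young mice (0.33 on the same measure, 0.0143). Its daily range without a cosine in young mice was 0.58 to 0.74 with 1 array left out. The level of Hlf passed with the mean of probe sets (0.20) and the other probe set (0.22). The daily range of Nfil3 in aged mice passed with weighted arrays (0.64) and when the 4 arrays with the smallest weights were dropped, a setting added after the data were seen (0.55). The cause of these changes was not tested. With the replicate number as a block the aged Hlf rhythm had an adjusted p of 0.0618 and the Nfil3 level 0.00135, and no call of the factors changed. Over all genes, the count rhythmic in aged mice was 349 with weighted arrays, 314 without aged ZT12 replicate 1 and 438 without the 4 arrays, and the count with an interaction was 558 and 540 in the last 2 of these and 573 without aged ZT0 replicate 4. Over all settings 116 to 438 genes were rhythmic in aged and 560 to 1833 in young mice (174 and 804 as reported), 0 to 4 differed in rhythm, and 248 to 573 had an age by time interaction (332).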

Other observations

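The spread between mice of a group was larger in aged than in young mice for each of the 4 factors, a comparison chosen after seeing the data. The SD within groups was 0.406 in aged and 0.308 in young mice for Dbp, 0.270 and 0.158 for Tef, 0.259 and 0.212 for Hlf, and 0.253 and 0.157 for Nfil3. Over all genes tested the medians were 0.183 in aged and 0.193 in young mice. The ratio of Tef (1.71) exceeded that of 96.2% of genes, and that of Nfil3 (1.62) that of 94.8%. By limma on absolute deviations from the group means no factor passed (adjusted p from 0.266 for Tef to 0.625 for Hlf, unadjusted 0.0151 for Tef and 0.037 for Nfil3). Of all genes 0.101% passed, 11 with a larger and 2 with a smaller spread in aged mice.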
